A study of Canis lupus familiaris with 32 samples.

Results

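The subject is the skeletal muscle signal in 32 skin biopsies of 8 atopic dogs, and how the 10 biopsies with a strong signal, called muscle-rich, differed from the 22 without it, called muscle-poor. Each array was given a score, the mean log2 signal of MYH2, MYLPF, TNNC2, CSRP3, PYGM, MYBPC1 and CASQ1, and a score above 6 put it among the muscle-rich arrays. These values chose the members, so the score and the differences of muscle genes between the classes are descriptions. Where a count of muscle genes past a threshold is given, it describes how far the split reached and is no evidence for it.

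The dogs were of the Maltese-beagle kind named in the labels, 5 males and 3 females between 5.5 and 10.5 years old. All had been sensitized through the skin to the house dust mite Dermatophagoides farinae and were picked because a mite patch had given them skin lesions. Every dog gave 4 biopsies of the side of the chest: 1 at 6 h under a mineral oil control patch, and 1 each at 6 h, 24 h and 48 h under a mite patch. There was no oil control at 24 h or 48 h, and no dogs without allergy are analysed here. Each array is 1 biopsy, and the arrays of a group come from separate animals. The classes do not: the 10 muscle-rich arrays come from 7 dogs, each of which also gave muscle-poor arrays, so n in a comparison of classes counts arrays.

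Below the skin and subcutaneous fat of a dog's trunk lies a thin sheet of striated muscle, the cutaneous trunci, which twitches the skin. Skeletal muscle fibres contract when calcium lets myosin pull on actin, and the thin filament is switched by troponin. Fast and slow fibres use different isoforms of myosin, its light chains and the troponins, and they differ in how far they rely on stored glycogen or on mitochondria. In a piece of whole tissue, fewer cells of a type and less RNA per cell cannot be told apart.

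The 32 arrays had median log2 signals between 4.63 and 4.90. The array at 24 h of dog 5 was the lowest. Names were attached to probe sets for 15890 genes, 92.9% of the authors' gene table. All 7 score genes were named by equality of all 6 values in that table. No sequence is shown, since the value table carries none.

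The scores fell into a high and a low range with a few arrays between. Among the muscle-rich arrays they were 10.72 for the control biopsy of dog 4, 10.43, 10.41, 10.25, 10.18 and 9.90 for the 6 h mite biopsies of dogs 6, 5, 1, 3 and 2, 9.82 and 9.76 for the 24 h biopsies of dogs 4 and 2, 9.27 for the control biopsy of dog 7 and 6.69 for that of dog 1. The nearest muscle-poor arrays were the control biopsies of dogs 6 and 5, at 5.54 and 4.92, and the lowest score was 2.97. Control dog 1 was thus the array just inside the threshold and control dog 6 the one just outside. Leaving out PYGM or CASQ1 from the score moved 1 array across the threshold, and leaving out any of the other 5 genes moved 0.

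Muscle-rich biopsies were unevenly spread over times and dogs. They made up 3 of 8 control biopsies, 5 of 8 at 6 h, 2 of 8 at 24 h and 0 of 8 at 48 h. Dogs 1, 2 and 4 gave 2 each, dogs 3, 5, 6 and 7 gave 1 each and dog 8 gave 0. No dog was muscle-rich in all of its biopsies, and the control and the 6 h biopsy of 1 dog often differed: dog 4 had 3.86 at 6 h against 10.72 in its control, and dog 6 had 10.43 at 6 h against 5.54 in its control.

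**Figure D1:**
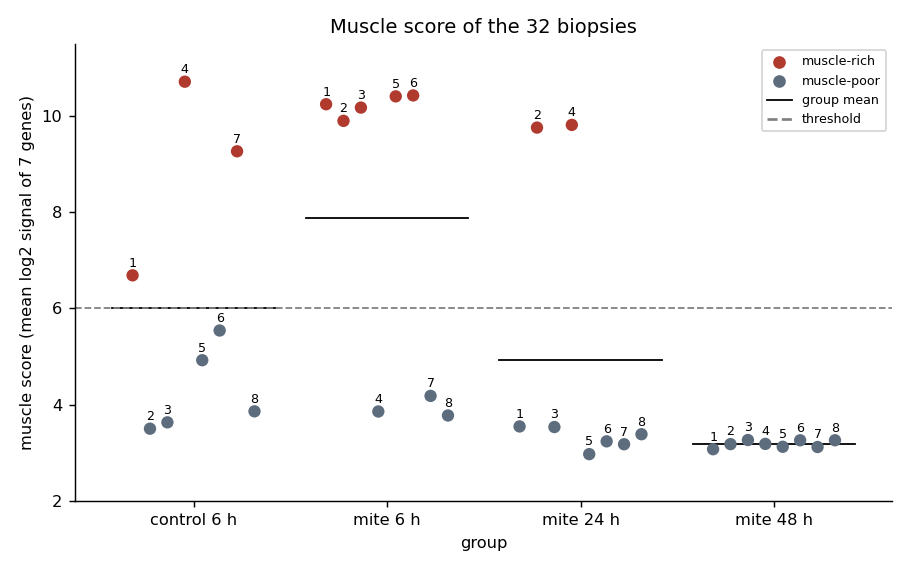
Muscle score (vertical axis, mean log2 signal of 7 genes) of each biopsy by group, with the dog's number above each point, black lines at the group means and the threshold of 6 as a dashed line. The 8 biopsies at 48 h lie between 3.07 and 3.26, while each of the other groups holds both high and low arrays.

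Group means of the score were 6.02 ± 2.70 in control biopsies, 7.87 ± 3.26 in the 6 h, 4.93 ± 3.01 in the 24 h and 3.18 ± 0.07 in the 48 h mite biopsies (SD, n = 8 each). The 48 h biopsy scored below the control biopsy of the same dog in all 8 dogs, with a mean difference of -2.83. It was also the lower when set against the 6 h one in all 8 dogs, with a mean difference of -4.69. The 6 h biopsy had the higher score in 5 of 8 dogs when set against the control, a mean difference of 1.86. The 24 h biopsies exceeded the control in 1 of 8 dogs, with a mean difference of -1.09. The remaining pairs, 24 h against 6 h and 48 h against 24 h, differed by -2.94 and -1.75. No test of the score is given, since its values made the classes.

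Of the score genes themselves, MYH2, a fast myosin heavy chain, had log2 signals with a minimum of 9.88, a median of 12.70 and a maximum of 13.06 in muscle-rich arrays, against 2.11, 2.96 and 8.32 in muscle-poor arrays. MYLPF, the fast regulatory light chain, had 8.55, 12.49 and 13.13 in muscle-rich arrays, against 3.27, 4.36 and 7.02 in muscle-poor arrays. TNNC2, the calcium-binding troponin of fast fibres, had 8.68, 12.64 and 13.14, against 3.69, 4.53 and 7.45. These 3 fast fibre genes did not overlap between the classes.

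CSRP3, the muscle LIM protein, had 6.58, 10.99 and 11.72 in muscle-rich arrays, against 2.23, 2.47 and 5.36 in muscle-poor arrays. MYBPC1, a myosin-binding protein, had 7.15, 10.90 and 11.98, against 3.64, 4.37 and 6.27. PYGM, the muscle glycogen phosphorylase, had 3.35, 6.58 and 7.58, against 2.38, 2.64 and 2.92. CASQ1, which stores calcium in the sarcoplasmic reticulum, was the dimmest, with 2.63, 4.37 and 5.49, against 2.08, 2.43 and 2.83, and it was the score gene whose classes overlapped.

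With the group in the model and the score genes left out, 895 of 42853 probe sets differed between muscle-rich and muscle-poor arrays (2.09%, limma, adjusted p under 0.05). Of these, 873 were higher in muscle-rich arrays (2.04%) and 22 were lower (0.0513%). Of the higher ones 277 had a gene name and 596 had none; of the lower ones 8 had a name and 14 had none. The number of lower ones was unstable: it was 55 without the control array of dog 1, 57 without the 24 h array of dog 5 and 6 to 50 without each dog in turn. Probe sets whose muscle-rich arrays all lay above all muscle-poor arrays numbered 147 (0.343%), and 0 lay below in the same way. At least 2-fold differences in either direction were found in 387 of the 895, and rises of at least 16-fold in 74. The largest fall among the 895 was -1.12. Because the arrays were split by muscle signal, these shares are the background for the counts that follow and support nothing by themselves. Of the 277 named genes, 97 (35.0%) were in the lists of skeletal muscle genes used here, which hold 167 measured genes other than the score genes. Differences below are muscle-rich minus muscle-poor on the log2 scale with the group held fixed, so they can differ a little from the plain difference of means, and the 48 h arrays, all muscle-poor, do not enter their size.

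The contractile genes of fast fibres included the largest fitted differences. MYL1, the essential light chain of fast myosin, had log2 signals with a minimum of 9.09, a median of 12.69 and a maximum of 13.23 in muscle-rich arrays, against 1.92, 2.32 and 7.91 in muscle-poor arrays. The fitted difference was 8.73 (SE 0.52), the largest of all probe sets tested. The muscle-poor signals of such genes lie close to the lowest value of the table, 1.23, and no detection call was used, so these are differences of signal and not exact folds of RNA. TNNT3, the troponin that anchors the complex in fast fibres, had 6.33, 10.68 and 11.66 in muscle-rich arrays, against 1.86, 2.35 and 4.87 in muscle-poor arrays, a difference of 7.46 (SE 0.39). Neither gene overlapped between the classes.

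TNNI2, the inhibitory troponin of fast fibres, differed by 4.15, MYOZ1, a Z-disc protein of fast fibres, by 6.43 and MYBPC2, the fast myosin-binding protein, by 4.34. Of the 14 measured genes of the fast fibre list, 10 passed as higher and the list's median was 3.08, beside -0.02 over all probe sets tested. The 4 that did not pass were MYH4, MYH13, ATP2A1 and PVALB, with differences of 0.14, -0.04, -0.05 and -0.03. The linked probe set of MYH4 was dim on every array. That of ATP2A1, the calcium pump of fast fibres, was about as bright in both classes. The authors' deposited table lists this gene with a 4.2-fold rise at 6 h, which the linked probe set did not give. Whether that probe set measures ATP2A1 was not tested.

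The filament genes that fast and slow fibres share also stood high. ACTA1, skeletal actin, was the brightest of them, with a minimum of 11.62, a median of 13.73 and a maximum of 13.91 in muscle-rich arrays, against 4.16, 6.10 and 10.07 in muscle-poor arrays (difference 6.78, SE 0.51). In 9 of the 10 muscle-rich arrays it lay within 0.44 of each other, between 13.48 and 13.91, near the top of the range of the whole table, where 14.03 was the highest value. Among the muscle-poor arrays the control biopsies of dogs 6 and 5 were the highest, at 10.07 and 8.77.

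Of 33 measured sarcomere and Z-disc genes, 25 passed as higher, with a median difference of 1.19. NRAP, which helps to assemble myofibrils, differed by 6.21, TMOD4, which caps actin filaments, by 4.78, DES, the intermediate filament desmin, by 3.14, TCAP, which ties titin to the Z disc, by 2.61 and TTN, the giant spring titin, by 1.75. LOC100855693 and LOC609334, which the authors' table describes as myotilin-like and leiomodin-2-like, differed by 5.61 and 4.62. NEB, nebulin, had a difference of -0.02 at its linked probe set. The authors' deposited table gives it a 3.2-fold rise at 6 h, which the linked probe set did not give. Whether that probe set measures NEB was not tested.

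ANKRD1, a stretch-responsive ankyrin repeat protein of striated muscle, had a minimum of 6.05, a median of 10.74 and a maximum of 12.46 in muscle-rich arrays, against 2.12, 2.66 and 5.52 in muscle-poor arrays. Its difference of 7.52 (SE 0.51) was the next after MYL1. APOBEC2, a muscle member of a deaminase family, differed by 6.03 and SMPX, a small protein of muscle, by 4.47.

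**Figure D2:**
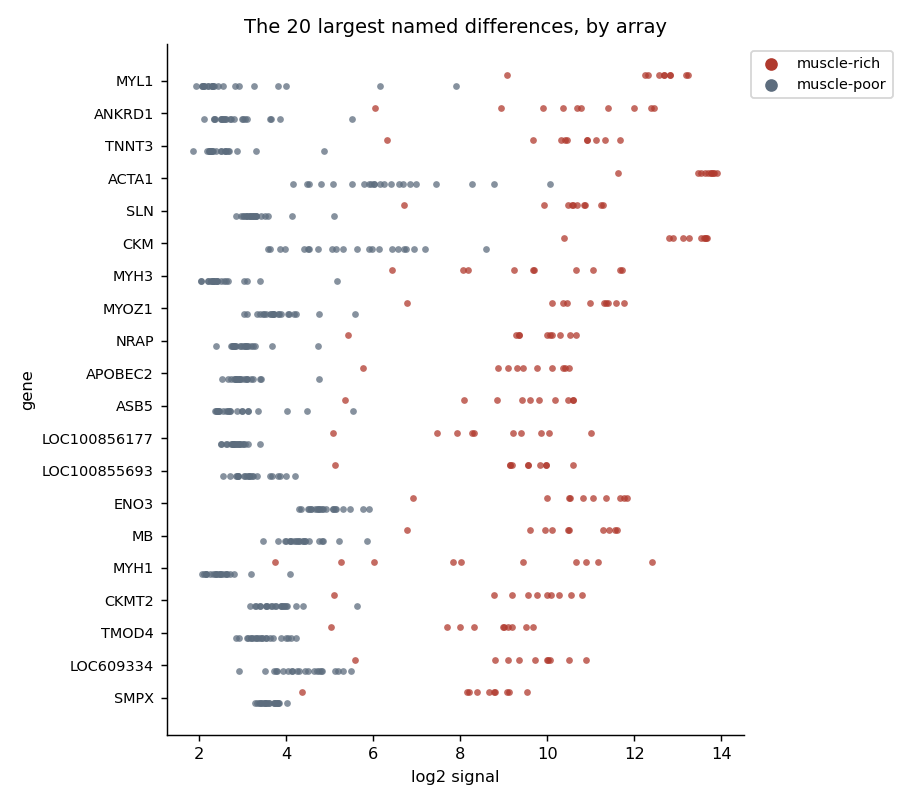
Log2 signal (horizontal axis) of the 20 named genes with the largest differences, with 1 point per array for the 10 muscle-rich arrays and, just under them, the 22 muscle-poor arrays. In each row the lowest muscle-rich point is the control array of dog 1, except for MYH1, where the 6 h array of dog 2 is lowest.

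Genes of energy supply also stood high. CKM, the creatine kinase of muscle, had a minimum of 10.38, a median of 13.40 and a maximum of 13.68 in muscle-rich arrays, against 3.59, 5.47 and 8.60 in muscle-poor arrays (difference 6.74, SE 0.43). MB, the oxygen store myoglobin, had 6.77, 10.50 and 11.61, against 3.48, 4.31 and 5.86 (difference 5.54, SE 0.35). Neither overlapped between the classes.

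Of 26 measured genes of this list, 20 passed as higher, with a median of 1.73. Glycolysis was represented by ENO3, muscle enolase, at 5.61, PGAM2, muscle phosphoglycerate mutase, at 4.37, and PFKM, muscle phosphofructokinase, at 2.42. CKMT2, the mitochondrial creatine kinase, differed by 5.30, AMPD1, the AMP deaminase of muscle, by 3.72 and UCP3, a mitochondrial carrier of muscle, by 3.49. LDHA and TPI1, glycolytic enzymes that most tissues make, differed by only 0.45 and 0.53. GPD1 and SLC2A4 had differences of 0.00 and 0.01.

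Genes of the mitochondria list differed little. Of 24, 9 passed as higher, with a median of 0.24 and a largest difference of 0.52 for GOT2, which shuttles amino groups and reducing power across the mitochondrial membrane. MDH2, of the citric acid cycle, differed by 0.44 and SDHB, of respiratory complex II, by 0.34. By comparison, the muscle isoforms COX6A2 and COX7A1 of cytochrome oxidase differed by 3.84 and 1.75.

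Among genes of calcium release and the nerve-muscle junction, 10 of 20 passed as higher, with a median of 0.35. The calcium-handling members led: HRC, a calcium-binding protein of the sarcoplasmic reticulum, differed by 2.48, STAC3, a partner of the calcium channel, by 2.05 and CACNA1S, the voltage sensor of the muscle fibre, by 1.01. The acetylcholine receptor subunits CHRNA1, CHRNB1, CHRND, CHRNE and CHRNG had differences between -0.11 and 0.06, and 0 of them passed. The 7 that passed among 17 genes of the muscle membrane were led by CAV3, the caveolin of muscle, at 3.05, while DMD, dystrophin, had a difference of 0.18 and did not pass.

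Regulatory genes of muscle were divided. MEF2C, a transcription factor of muscle, had a minimum of 7.56, a median of 8.90 and a maximum of 10.06 in muscle-rich arrays, against 5.93, 6.90 and 7.23 in muscle-poor arrays (difference 1.76, SE 0.19), with no overlap. MYF6, the myogenic factor of mature fibres, differed by 1.26, VGLL2, a cofactor of muscle genes, by 0.51 and ASB5 by 5.75. MYOD1, MYF5, MYOG and PAX7, which mark muscle precursors and satellite cells, had differences of -0.05, -0.03, 0.07 and 0.02. Of 16 measured genes of this list 5 passed as higher, and of 8 atrophy genes 2 did, PDK4, which restrains glucose oxidation, at 1.63 and FBXO32, the ubiquitin ligase atrogin-1, at 0.94.

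The muscle-rich biopsies were not alike in fibre type. The 10 measured genes of the slow fibre list all passed as higher, with a median of 2.04, but the slow myosin and troponin genes were far from even over the 10 arrays. MYH7, the slow myosin heavy chain, read 10.69 in the control biopsy of dog 7, 10.44 and 10.12 in the 6 h biopsies of dogs 5 and 6, and 6.82, 6.77, 6.34, 5.75, 5.32, 4.95 and 4.71 in the other 7 muscle-rich arrays. The highest muscle-poor array read 5.48. In 3 biopsies MYH7 was therefore far above the rest, and in 3 others it lay within the muscle-poor range.

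MYL2, the slow regulatory light chain, followed the same arrays, with 10.50 in the control biopsy of dog 7 and 9.88 and 9.48 in the 6 h biopsies of dogs 6 and 5. It read between 3.23 and 5.61 in the other muscle-rich arrays, against a muscle-poor maximum of 4.13. TNNC1, the slow troponin C, read 10.56, 10.29 and 10.14 in those same 3 biopsies, and 8.13 at most in the others. MYL3, the slow essential light chain, read 8.27, 8.28 and 8.27 there and 6.83 at most in the others.

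Averaged over 5 slow contractile genes (MYH7, MYL2, MYL3, TNNC1 and TNNI1), the signal lay 4.80, 4.61 and 4.45 above the muscle-poor mean in the control biopsy of dog 7 and the 6 h biopsies of dogs 6 and 5. In the other 7 muscle-rich arrays it lay between 0.42 and 2.05 above. Averaged over 6 fast contractile genes (MYH2, MYLPF, TNNC2, MYL1, TNNT3 and TNNI2), the control biopsy of dog 4 stood at 8.48 above the muscle-poor mean, the highest of all, with 0.42 for the slow genes, the lowest of the 10. These gene sets were picked by isoform after their values were seen, and the difference between the 3 arrays and the rest is given without a test. The 3 came from 3 dogs and from 2 groups. Their MYH7 values decide much of the class difference: without dog 7 it was 1.75, against 2.40 with all dogs, and it no longer passed.

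**Figure D3:**
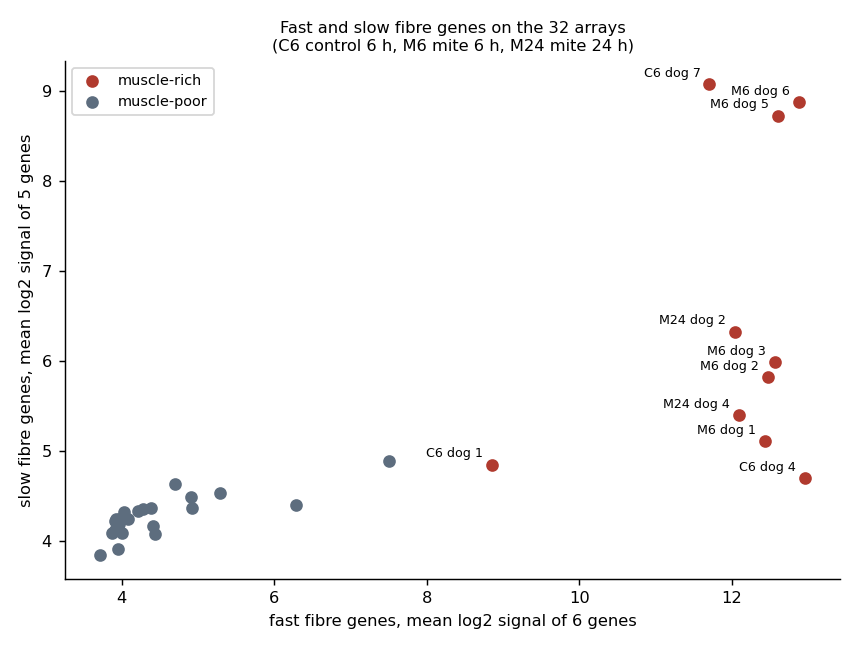
Mean log2 signal of 5 slow fibre genes (vertical axis) against that of 6 fast fibre genes (horizontal axis) for the 32 arrays, with the muscle-rich ones named. The slow mean is 9.08, 8.88 and 8.73 in 3 arrays and between 4.70 and 6.33 in the other 7 muscle-rich ones, of which 6 have fast means above 12 and the control array of dog 1 has 8.86.

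SLN, sarcolipin, which slows the calcium pump, did not follow the slow myosins. It read between 9.93 and 11.29 in 9 muscle-rich arrays and 6.72 in the control biopsy of dog 1, against a muscle-poor maximum of 5.11 (difference 6.74, SE 0.34).

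MYH1, the IIx fast heavy chain, varied most of the genes listed by array: 12.41 in the 6 h biopsy of dog 1, 11.17 in the control biopsy of dog 7, 10.90 and 10.66 at 6 h in dogs 5 and 6, 9.43 in dog 3 at 6 h, 8.03 in the control biopsy of dog 4, 7.84 at 24 h in dog 4, 6.02 in the control biopsy of dog 1, 5.27 at 24 h in dog 2 and 3.75 at 6 h in dog 2. The last value lay inside the muscle-poor range, whose maximum was 4.10. Both muscle-rich biopsies of dog 2 were thus the lowest in MYH1, although MYH2 was above 11.7 in them as in the other arrays apart from the control biopsy of dog 1.

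MYH3, named for the embryonic heavy chain, ranged from 6.44 to 11.73 in muscle-rich arrays, against 2.04 to 5.18 in muscle-poor arrays. Its probe set and transcripts of other heavy chains can share sequence, and which of them it measured was not tested.

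The control biopsy of dog 1 lay between the classes in several of the brightest muscle genes. It read 9.09 for MYL1, 11.62 for ACTA1, 10.38 for CKM and 6.77 for MB, below each of the other 9 muscle-rich arrays and above every muscle-poor one. In HRC, STAC3, CACNA1S and MYH7 it read 2.25, 5.27, 5.12 and 5.32, within the range of the muscle-poor arrays. Below the threshold, the control biopsy of dog 6 exceeded all 8 arrays at 48 h in 18 of the 20 genes with the largest differences, the control biopsy of dog 5 in 16 and the 6 h biopsy of dog 7 in 15. The muscle-poor class is therefore graded. The 48 h arrays were the reference of this count and were not themselves counted. The lowest counts were 2 in the 24 h biopsies of dogs 5 and 6. Next came 3 in the 24 h biopsies of dogs 7 and 8 and in the control biopsy of dog 2. Without the control array of dog 1, a setting chosen after seeing the data, the difference was 9.25 for MYL1 and 7.06 for ACTA1.

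MYL1 and ACTA1 were higher in the muscle-rich arrays within each group that holds both classes. MYL1 differed by 7.10 among control arrays, by 9.30 among 6 h arrays and by 10.06 among 24 h arrays, and ACTA1 by 5.93, 7.13 and 7.40. In the 8 control arrays alone, which include the control array of dog 1 among the 3 muscle-rich ones, 0 probe sets passed in limma and 3164 had an unadjusted p under 0.05.

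Genes of other cell types were measured to see what else the muscle-rich biopsies held. Of 131 measured genes in 12 lists, 3 rose in muscle-rich arrays and 0 fell (limma, adjusted p under 0.05 over all probe sets), beside 2.09% of all probe sets that passed. At an unadjusted p under 0.05 there were 8 of the 131, beside 3331 of all 42853 probe sets. The median difference over the 131 was 0.03, beside -0.02 over all probe sets and 0.45 over the 167 muscle genes.

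The 3 that rose were CILP, ACTC1 and SYNM. CILP, a matrix protein of cartilage and other connective tissue, had a minimum of 7.47, a median of 9.34 and a maximum of 11.07 in muscle-rich arrays, against 4.19, 5.88 and 8.38 in muscle-poor arrays. It rose by 2.04 (SE 0.29, limma adjusted p = 6.33e-06), with overlap, and 7 of 10 muscle-rich arrays lay above all muscle-poor ones. ACTC1, the actin of heart that immature skeletal muscle also makes, had 3.31, 5.34 and 8.21, against 2.63, 3.55 and 6.80, and rose by 1.90 (SE 0.43, limma adjusted p = 0.00717). The classes overlapped broadly and 1 muscle-rich array, at 24 h in dog 2, lay above all others.

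SYNM, synemin, an intermediate filament protein of several muscle types, had 5.34, 5.65 and 6.09 in muscle-rich arrays, against 4.54, 5.14 and 5.40 in muscle-poor arrays, and rose by 0.52 (SE 0.09, limma adjusted p = 0.000357). The defining genes of smooth muscle, ACTA2, MYH11, CNN1 and TAGLN, had differences of 0.09, 0.19, 0.12 and 0.05 and did not pass. The heart genes NPPA, NPPB and NKX2-5 had differences of -0.09, 0.04 and 0.03, and the tendon gene TNMD one of 0.01.

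Of 16 measured epidermal genes, 0 passed, with a median difference of -0.19 and a range from -0.42 to -0.01. The 6 h array of dog 6, a muscle-rich one, read lowest of all 32 in DSG1 and PERP, proteins of the desmosome, at 9.18 and 9.17, and in CLDN1, of the tight junction, at 5.81. Without this array, a setting chosen after seeing the data, the median of the list was -0.11 and 13 of the 16 differences were below 0. Other arrays moved it as well. Without dog 8, which gave 0 muscle-rich arrays, the median was -0.12 and 13 of the 16 were below 0. Without dog 5 it was -0.26, with 16 of the 16 below 0. Among 24 h arrays alone the median was -0.02, with 9 of the 16 below 0. Among 6 h arrays alone, which include that of dog 6, it was -0.42. Among control arrays alone it was -0.15, and in both of these groups 15 of the 16 were below 0. DSC1, a desmosomal cadherin of the upper epidermis, had a mean of 6.57 ± 0.65 in muscle-rich arrays (SD, n = 10) and 7.06 ± 0.39 in muscle-poor arrays (SD, n = 22), a difference of -0.42 (SE 0.20, limma adjusted p = 0.634). KRT10, the keratin of the layers above the basal one, differed by -0.31 (95% interval -0.75 to 0.12) and KRT5 and KRT14, the basal keratins, by -0.22 and -0.17.

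Fat genes, of tissue that lies between dermis and the muscle sheet, had a median difference of -0.13, and 0 of 11 passed. ADIPOQ, the hormone adiponectin, had medians of 12.22 in muscle-rich and 11.44 in muscle-poor arrays, and with the group held fixed the difference was -0.13 (95% interval -0.61 to 0.36). LEP, leptin, averaged 6.46 ± 1.08 in muscle-rich arrays (SD, n = 10) and 5.95 ± 1.22 in muscle-poor arrays (SD, n = 22), with a fitted difference of -0.36 (95% interval -0.97 to 0.25). The plain levels and the fitted differences of both genes thus have opposite signs. Muscle-poor arrays include all of the 48 h biopsies, and both genes fell at 48 h.

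Leukocyte genes had a median difference of 0.01 over 15 members, with 0 passing and a range from -0.12 to 0.15. Over the 11 type 2 and alarmin genes the median was 0.10 and 0 passed. CCL17, a chemokine that draws type 2 helper T cells, differed by 0.57 (95% interval -0.67 to 1.82), IL13 by -0.30 (95% interval -0.92 to 0.31) and CCL24 by -0.45 (95% interval -1.05 to 0.15). The interval of CCL17 was the widest of these 3. Lists for endothelium, fibroblasts, hair follicle and glands, Schwann cells and melanocytes had medians between 0.02 and 0.14, and 0 of their members passed. The melanocyte list was not alike over the groups. Its median was 1.00 among control arrays alone, -1.36 among 6 h arrays alone and 0.96 among 24 h arrays alone, with 0 of its members passing in each.

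**Figure D4:**
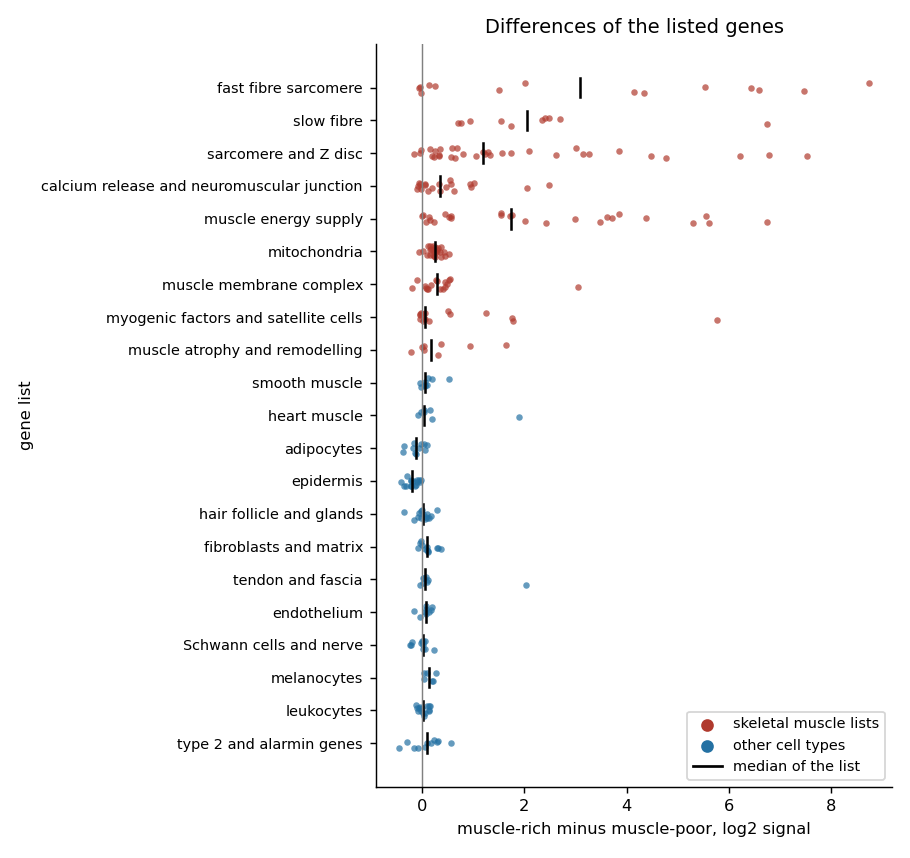
Differences between muscle-rich and muscle-poor arrays (horizontal axis, log2 signal) of each measured gene, by list, with black bars at the medians. The muscle lists reach 8.73, whereas in the lists of other cell types CILP at 2.04, ACTC1 at 1.90 and CCL17 at 0.57 are the highest points.

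The 8 named genes that fell in muscle-rich arrays fell little. CCNL1, a cyclin tied to splicing, averaged 8.16 ± 0.24 in muscle-rich arrays and 8.50 ± 0.22 in muscle-poor arrays, with a difference of -0.37 (SE 0.10, limma adjusted p = 0.0432). SLC25A43, a mitochondrial carrier, differed by -0.34, NDOR1, an oxidoreductase, by -0.32 and KREMEN1, a Wnt pathway receptor, by -0.30. The other 4 were CRLF3, FAM76A, MYBPHL and C5H11orf57, with differences between -0.28 and -0.25. Each of the 8 overlapped between the classes and lost its call under several of the alternatives tried.

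Measures of the arrays themselves were compared by exact permutation of the class within groups, 87808 arrangements in 3 groups, with arrays of 1 dog treated as separate. GAPDH, a glycolytic enzyme whose control probe sets serve to gauge RNA quality, was higher in muscle-rich arrays: its 3' probe set averaged 13.22 ± 0.30 in muscle-rich arrays (SD, n = 10) and 12.41 ± 0.29 in muscle-poor arrays (SD, n = 22). Within groups the difference was 0.96. GAPDH is also on the list of muscle energy supply, so its level is a description, as for the other muscle genes, and is given without a p-value. The 5' probe set averaged 12.03 ± 0.65 and 10.74 ± 0.35 in the same order, a difference of 1.38 within groups.

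The gap between the 3' and the 5' probe set of GAPDH is a usual sign of RNA breakdown when it is wide. It was smaller by 0.42 in muscle-rich arrays (exact permutation, 2-sided, adjusted p = 0.00374 over 6 measures). Both probe sets in this gap rose with the class, by unequal amounts. With this test RNA quality and the muscle signal therefore cannot be told apart. The 3' probe set reached 13.50 in muscle-rich arrays, near the highest value of the whole table, 14.03. Whether this narrowed the gap was not tested. The same gap of the actin control differed by 0.06 (exact permutation, adjusted p = 0.756). The gap thus differed between the classes for GAPDH and did not pass for actin. Array medians differed by 0.01 and the bioB hybridization control by -0.06 (exact permutation, adjusted p = 0.649 for both).

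Because the classes were spread unevenly over time, each time was compared with the control once with and once without a term for the class. All 3 comparisons share the 8 control arrays. At 6 h, 231 probe sets passed with the term (0.539%), 5 higher (0.0117%) and 226 lower (0.527%). Without it 469 passed (1.09%), 18 higher (0.042%) and 451 lower (1.05%). Of these, 226 were shared, which is 97.8% of the calls with the term and 48.2% of those without. With the dog as a block, which the labels allow, the 6 h counts were 689 with the term and 1239 without. The class term takes a degree of freedom and is partly aligned with time. Muscle-rich biopsies were 5 of 8 at 6 h, 2 of 8 at 24 h and 0 of 8 at 48 h, against 3 of 8 controls. At 48 h the size of the term therefore comes from the other groups alone. Why the counts differ with and without the term was not tested.

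At 24 h, 2154 passed with the term (5.03%; 1.71% higher and 3.31% lower) and 2161 without (5.04%; 1.8% higher and 3.24% lower), with 2026 shared. With the dog as a block these were 3572 and 3513. At 48 h, 5937 passed with the term (13.9%; 7.59% higher and 6.26% lower) and 6487 without (15.1%; 8.6% higher and 6.54% lower), with 5464 shared. In proportion, the later counts therefore changed less with the term than the 6 h one, and the count at 48 h changed most in number.

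The 873 probe sets higher in muscle-rich arrays were chosen by the same class term, so a shift of their time differences toward 0 with the term is built in, and the values are a description. Their median difference from control at 6 h was 0.22 with the term and 0.44 without, at 24 h -0.04 with and -0.17 without, and at 48 h 0.01 with and -0.37 without. Over all probe sets these medians were between -0.03 and 0.01. MYL1 at 48 h had a difference of -1.62 (SE 0.63) with the term and -4.90 (SE 1.87) without, and passed in neither fit (limma adjusted p = 0.083 and 0.0743).

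Of the 167 muscle genes, 0 passed at 6 h in limma with or without the term, while 27 with it and 32 without had an unadjusted p under 0.05. At 48 h 22 passed as higher and 20 as lower with the term, against 11 and 23 without. Over all probe sets 7.59% passed as higher and 6.26% as lower with the term, and 8.6% and 6.54% without. Most of the 22 were from the mitochondria list, such as ATP5B, COX5A and SDHB. MYBPC2, of fast fibres, was also among them, at 2.64 with the term. Its difference without the term was 1.01 and did not pass. PDK4 fell at 48 h in both fits, by 1.49 with the term and by 2.11 without. CKM passed as lower at 48 h with the term, at -1.54, where its difference without the term was -4.07 and did not pass. The class has only 2 levels, so a graded muscle signal within the muscle-poor arrays is not modelled in these fits.

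Of genes of the allergic response, CCL17 rose at 48 h by 5.93 with the term and by 5.71 without, and IL13 by 2.36 with and 2.48 without. Among other genes, LEP fell at 48 h by 2.57 with the term and by 2.43 without. CILP fell at 48 h by 1.54 with and by 2.30 without.

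**Figure D5:**
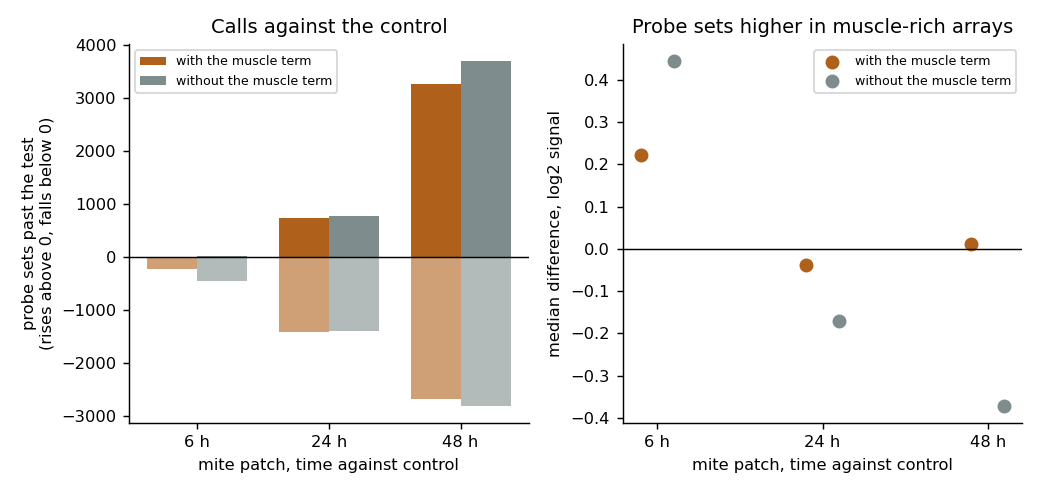
Left, probe sets that passed against the control at each time, rises above 0 and falls below, with and without the muscle term. Right, median difference from the control of the 873 probe sets higher in muscle-rich arrays, which lies between -0.04 and 0.22 with the term and between -0.37 and 0.44 without it.

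The authors' deposited table of folds against the control shows where score genes and genes higher in muscle-rich arrays stand among the largest changes. Of its 20 largest rises at 6 h, from 5.3-fold down to 3.8-fold, 5 were score genes and 13 were genes higher in muscle-rich arrays, and 0 of the 20 have an adjusted p under 0.05 in the authors' deposited table. Of its 20 largest falls at 48 h, 16 were such genes, and 3 of the 20 have an adjusted p under 0.05 in the authors' deposited table. At 24 h 7 of the 20 largest falls in the authors' deposited table were score genes or genes higher in muscle-rich arrays. Among the 20 largest falls at 6 h and the 20 largest rises at 24 h and at 48 h of the authors' deposited table there were 0. Over all named genes tested, 277 of 15883 were higher in muscle-rich arrays. The folds and the classes come from the same 32 arrays. Muscle-rich biopsies were 5 of 8 at 6 h and 0 of 8 at 48 h, against 3 of 8 controls. These counts are therefore a description and no separate evidence.

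In the authors' deposited table MYH2 has a signed fold of 4.4 at 6 h, -5.2 at 24 h and -30.8 at 48 h, with adjusted p-values of 0.682, 0.547 and 0.067. MYL1 has 4.2, -4.5 and -29.9 in the authors' deposited table. Thus the fold with the greatest fall of that time belongs to a gene whose control values were widely spread: MYH2 read 13.06, 11.78, 9.88, 8.32, 6.78, 4.81, 3.54 and 2.86 in the 8 control biopsies.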

How the data were processed

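RNA of 32 biopsies was hybridized to expression arrays. The authors deposited log2 signals for 43035 probe sets, used as they stand; the normalization is not given in the sources used here. A gene table, also deposited, holds a signed fold score and an adjusted p-value for each time against the control. Where that table holds only a bound for a p-value, no number was read.

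Names came from equality with that table. An ordinary linear model was fitted to each probe set, and a gene was named when 1 probe set equalled its 3 folds (within 0.05) and p-values (within 0.001), giving 10512 genes with 1.4 wrong links expected. A second pass, added after seeing the data, asked for equality in at least 2 of 3 comparisons and added 5378 genes, 2.75% of them wrong by shuffling.

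After 175 array controls and the 7 score genes were left out, limma 3.58.1 in R 4.3.3 fitted group and class to 42853 probe sets (Benjamini-Hochberg, threshold 0.05). The members and lists were chosen with earlier results of these data known. Named genes were the score genes, the 20 largest rises and up to 10 falls, up to 6 per list and a fixed set; others were picked after their values were seen, or are described in the lists. Not every gene named by the rule is reported here, and the permutation test planned for the score is left out, since the score made the classes. The labels name the dog: deviations from group means correlated at 0.17 on average over 48 same-dog pairs, between -0.44 and 0.70, and at 0.26 with the class in the model. Permutation tests used Python 3.11.15. The limma fit was tested on simulated data. The number of arrays limits the precision.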

Additional observations from a re-analysis of the deposited data

Results flagged for a closer look

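In all, 54 sets of arrays were examined for a single array standing apart from the rest, and 13 did; chance alone flags about 5% of such sets. The control array of dog 1 was the lowest of the 10 muscle-rich arrays by a wide gap in the score, at 6.69, and in 10 genes: MYH2 at 9.88, MYLPF at 8.55, TNNC2 at 8.68, MYBPC1 at 7.15, ACTA1 at 11.62, CKM at 10.38, MYL1 at 9.09, TNNT3 at 6.33, MB at 6.77 and SLN at 6.72. These sets share the same 10 arrays, so they are not separate observations. The 24 h array of dog 5 had the lowest array median of its group, at 4.63, and without it 974 probe sets passed between the classes, against 895 with it. The 48 h array of dog 6 had the widest gap between the 3' and 5' GAPDH probe sets of its group, at 2.15.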

How the results depend on the processing

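The count of 895 probe sets between the classes stayed within 1.5 times under 13 of the settings tried that keep all dogs. It was 506 with dim probe sets left out, so that fewer were tested, and in fits to fewer arrays 527 among 6 h arrays, 404 among 24 h arrays and 0 among control arrays. Leaving out each dog in turn gave 591 (dog 4) to 1002, and the replicate block for the dog gave 904. Its 22 falls were less firm, at 73 with a score threshold of 8, 8 with one of 5, 55 without the control array of dog 1, 57 without the 24 h array of dog 5 and 6 (dog 2) to 50 (dog 5) without each dog. Other cell types had at most 3 genes past the test in each of these fits.

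The time counts were less firm. At 6 h without the muscle term 469 became 1239 with the replicate block and 0 among muscle-poor arrays only (2290 at an unadjusted p under 0.05), and 19 (dog 3) to 1131 (dog 4) without each dog, also past 1.5 times without dogs 1, 2, 6 and 8; with the term 231 became 689 with the replicate block and 5 (dog 8) to 490 (dog 5), also past 1.5 times without dogs 1, 3, 6 and 7. At 24 h without the term 2161 became 3513 with the replicate block, 1391 among muscle-poor arrays only and 968 (dog 3) to 1897 without each dog; with the term 2154 became 3572 with the replicate block and 961 (dog 3) to 1999; leaving out dog 7 also moved both. The cause was not tested. The score's mean difference of 48 h against 24 h was -1.74 after quantile normalization and -1.77 after centring. Without each dog, 24 h against control ranged from -2.14 (without dog 2) to -0.37, 24 h against 6 h from -4.22 (without dog 4) to -2.30, 6 h against control from 1.19 (without dog 3) to 3.10 (without dog 4) and 48 h against 24 h from -2.02 to -1.05 (without dog 4).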
